A study of Mus musculus with 6 samples.

Results

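Chemokines are small secreted proteins that steer the movement of leukocytes by binding to receptors on their surface, and the genes described here are those of the chemokines, of their signalling receptors and of the atypical receptors that take chemokines up without that signal. They were taken by gene symbol (Ccl, Cxcl, Ccr, Cxcr and Ackr with a number, plus Cx3cl1, Cx3cr1, Xcl1 and Xcr1, with Cxcl15 left out). There were 60 such genes among the 24964 gene symbols of the table, 24 of them CC ligands, 14 CXC, CX3C or C ligands, 18 signalling receptors and 4 atypical receptors. RNA had been sequenced from uterine tissue around the sites of embryo implantation in mice on day 13 of gestation, in 3 control samples and 3 samples labelled as lacking PGR, the progesterone receptor, in the uterine muscle layer or myometrium. The sources used here do not give how the receptor was removed, in which cells the deletion acts, or the strain, age and alleles of the controls. The labels do not say that the samples of a group came from separate animals, so each p-value covers no more than the spread among the libraries sequenced, and that spread may be technical.

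Chemokines are named for the spacing of the first cysteines of the mature protein, adjacent in the CC class and separated by another residue in the CXC class. A ligand is held on heparan sulfate chains of the vessel wall and the matrix, and it turns on a G protein coupled receptor of a passing cell, which then moves towards the source. In the pregnant uterus these signals bring in monocytes, macrophages and natural killer cells, and the decidua, the transformed stroma around the embryo, is known to hold down the chemokine genes that attract T cells.

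The libraries are described first. Levels are in FPKM, fragments scaled to gene length and library size, and differences are in log2(FPKM + 1), labelled deficient minus control, which understates changes at low levels. The mRNA of Pgr was at 9.72, 8.33 and 12.1 FPKM in control libraries, against 11.3, 12.4 and 7.73 FPKM in deficient-labelled libraries (difference 0.05, limma adjusted p = 0.91), so its level does not bear out the label and every direction given here rests on the label. Nor can this level refute the label. The loss is labelled for the myometrium, the libraries hold other tissue too, and the deleted region is not given. The tissue held muscle, and all 8 smooth muscle markers examined passed the limma test with lower levels in the deficient-labelled libraries, while no trophoblast marker reached a mean of 1 FPKM, 3 of those 8 being listed at 0 throughout. Control 3 and deficient 3 stood apart. Over genes, which do not count as replicates, Pearson's r was 0.992 between the other 2 controls but 0.983 and 0.982 for control 3 with each of them. It was 0.991 between deficient 1 and deficient 2 but 0.976 and 0.971 for deficient 3 with each of them. Deficient 2 was closer to every control (0.974, 0.973 and 0.977) than to deficient 3. Deficient 1 was at 0.972, 0.969 and 0.977 with the controls. Deficient 3 itself was less close to the controls (0.969, 0.964 and 0.966) than to its own group. Where leaving out 1 library moved the difference of a gene described below by more than 1.5 times, values without it are given for the larger differences. In a bulk sample, fewer cells of a type and less RNA per cell cannot be told apart. In the low values a single read had nearly equal weight in all 6 columns, and for a 1 kb gene 3 reads came to 0.0815 FPKM. The sequencing depth behind each library is unknown.

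No chemokine or receptor gene passed the test between the groups. Of the 60 genes, 30 reached a mean of 1 FPKM over the 6 libraries and were tested, and 0 had a limma adjusted p under 0.05, against 3.34% of all 12500 genes tested. At an unadjusted p under 0.05, 6 of the 30 differed, 4 with a higher mean in the deficient-labelled libraries (Cxcl14, Cxcl12, Ccl25 and Cxcr4) and 2 with a lower one (Ccl8 and Ccl6). Over all genes tested, 2682 of 12500 did so, 1796 higher and 886 lower, so the members' share of 20% was near the background of 21.5%. The smallest adjusted p was 0.093, for Cxcl14. The groups did not overlap for 3 members with higher values in the deficient-labelled libraries (10%, against 20.8% of all genes tested) and for 1 member with lower values (3.33%, against 8.16%). The members varied more between libraries of a group than most genes did, with a median standard error of 0.25 for the log2 difference against 0.094 over all genes, and 29 of the 30 lay above that median. The median difference was -0.09 over the members and 0.06 over all genes tested. The level in every library is plotted for 29 of the genes tested, followed by their fitted differences.

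**Figure D1:**
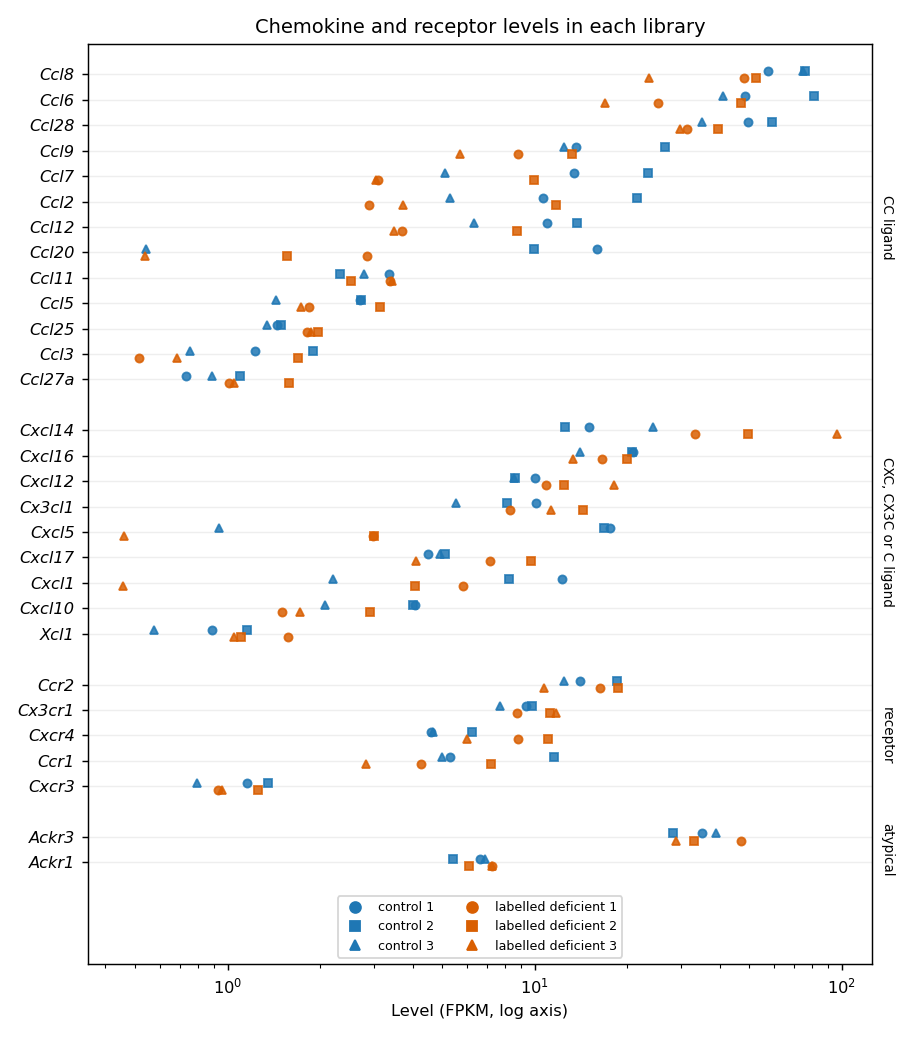
Level of 29 of the 30 tested chemokine and receptor genes in FPKM on a log axis, 1 point per library, with controls in blue, libraries labelled deficient in orange and the marker shape giving the replicate number. Cxcl14 has all 3 orange points above the blue ones, and Ccl8 has all 3 below.

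**Figure D2:**
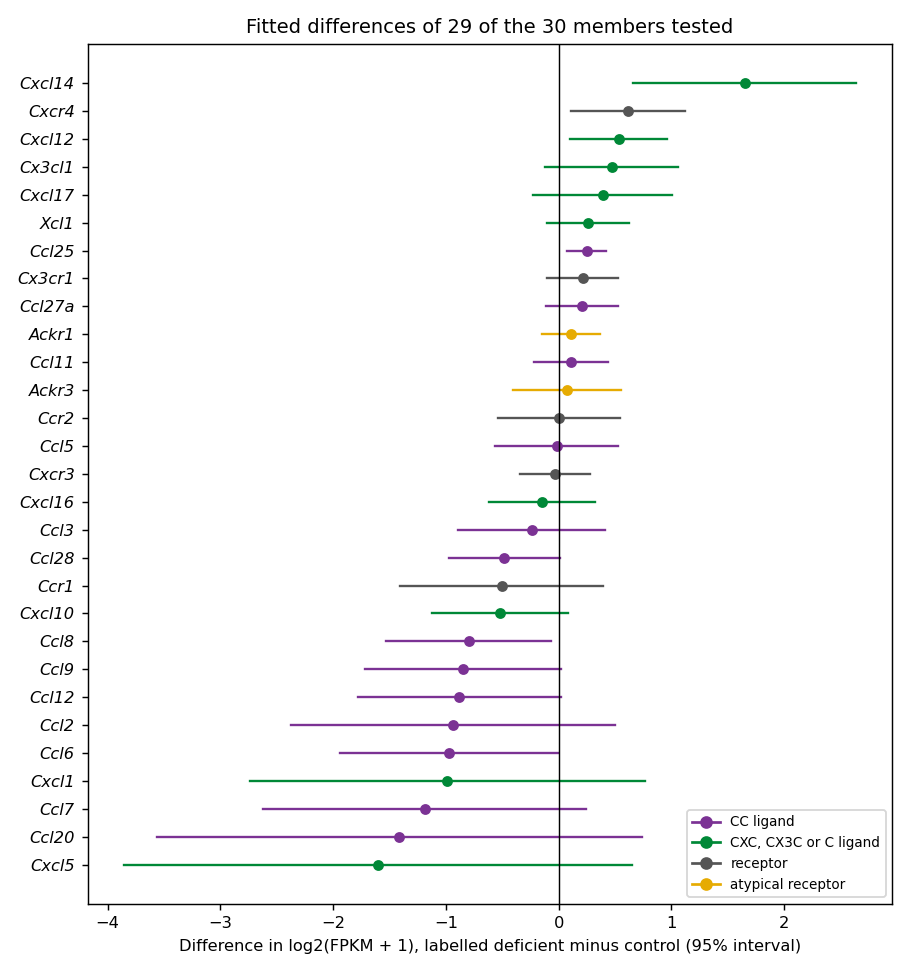
Difference in log2(FPKM + 1) between labelled deficient and control libraries for 29 of the 30 genes tested, with the 95% interval of the limma fit and colours for the class of gene. The widest intervals belong to Cxcl5, Ccl20, Cxcl1, Ccl7 and Ccl2, and 0 of the 30 genes passed after adjustment.

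Among the CC ligands, Ccl8 had the highest mean over the 6 libraries. Ccl8 (chromosome 11, 82115185 to 82116799, GRCm38) encodes a chemokine made largely by tissue macrophages. Its level was 57.6, 75.9 and 75.0 FPKM in the controls and 48.2, 52.7 and 23.6 FPKM in the deficient-labelled libraries, so every control lay above every library of the other group. The means were 69.5 ± 10.3 and 41.5 ± 15.6 FPKM (SD, n = 3 each), a difference of -0.80 (95% interval -1.53 to -0.07, limma adjusted p = 0.20). Deficient 3 carried much of that difference, which was -0.44 without it (limma adjusted p = 0.15) and -0.38 when control 3 was dropped as well (limma adjusted p = 0.16).

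Ccl2, Ccl7 and Ccl12, the ligands of the monocyte receptor Ccr2, sit with Ccl8, Ccl11 and Ccl1 in a cluster of 6 chemokine genes on chromosome 11 between 82035571 and 82305690. Ccl2 was at 10.7, 21.6 and 5.29 FPKM in control libraries, against 2.90, 11.8 and 3.73 FPKM in deficient-labelled libraries. Ccl7 was at 13.4, 23.4 and 5.10 FPKM in control libraries, against 3.09, 9.92 and 3.05 FPKM in the other group. Ccl12 was at 10.9, 13.7 and 6.33 against 3.70, 8.74 and 3.49 FPKM. In all 3 genes control 2 was the highest library and deficient 2 the highest of its own group, above control 3, so the groups overlapped. Their differences were -0.94 for Ccl2, -1.19 for Ccl7 and -0.88 for Ccl12, with standard errors of 0.60, 0.60 and 0.37 and limma adjusted p of 0.41, 0.31 and 0.24. Single libraries moved the first pair: without control 2 the difference was -0.47 for Ccl2 and -0.73 for Ccl7, and for Ccl2 it was -0.61 without deficient 1 and -1.46 without deficient 2. The controls alone spanned 4.59 times for Ccl7 and 4.08 times for Ccl2. Ccl11 (eotaxin), which lies inside the same cluster and attracts eosinophils through Ccr3, stayed between 2.33 and 3.43 FPKM in all 6 libraries, with a difference of 0.11 (95% interval -0.22 to 0.44).

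The last 100 bases before the RefSeq gene start of Ccl12 (GRCm38.p6, chr11:82101745-82101844, plus strand) are shown because a match to a kappaB-type motif was found there. Of this cluster, the promoters of Ccl12, Ccl8 and Ccl1 were searched, and Ccl12 and Ccl1 held a match. The motif searched, GGAANTTCC, reads the same on both strands and is a form of the site bound by NF-kappaB, the factor through which inflammatory signals induce many chemokine genes. Capitals mark the match, which begins 17 bases before the gene start.
Ccl12: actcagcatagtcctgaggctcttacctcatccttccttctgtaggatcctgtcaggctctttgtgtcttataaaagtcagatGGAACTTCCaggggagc

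Ccl6 and Ccl9, macrophage and myeloid chemokines that act on Ccr1, lie with Ccl5, Ccl3 and Ccl4 in the other chromosome 11 cluster, between 83525778 and 83664683. Ccl6 was at 48.5, 81.0 and 41.1 FPKM in control libraries, against 25.2, 46.9 and 17.0 FPKM in deficient-labelled libraries (difference -0.97, SE 0.40, limma adjusted p = 0.23). Ccl9 was at 13.7, 26.6 and 12.4 against 8.83, 13.2 and 5.69 FPKM (difference -0.85, SE 0.36, limma adjusted p = 0.24). For both genes deficient 1 and deficient 3 lay below every control, while deficient 2 lay among them. The difference of Ccl6 was -0.65 without deficient 3, and that of Ccl9 was -0.52 without control 2. Ccr1, their receptor, was at 5.30, 11.6 and 4.98 FPKM in control libraries, against 4.26, 7.20 and 2.82 FPKM in the other group (difference -0.51, 95% interval -1.41 to 0.40). Its difference was -0.16 without control 2, -0.25 without deficient 3 and -0.80 without deficient 2. Of the T cell and monocyte attractants of this cluster, Ccl5 had means of 2.28 ± 0.74 and 2.24 ± 0.78 FPKM and Ccl3 of 1.29 ± 0.57 and 0.964 ± 0.634 FPKM (SD, n = 3 each), and both overlapped between groups. Ccl4 stayed under the filter, between 0.288 and 1.31 FPKM.

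Several of these genes ranked the 6 libraries alike. Ccl6, Ccl9, Ccl7, Ccl12 and Ccl28 had the same order, control 2 highest, then control 1, deficient 2, control 3, deficient 1 and deficient 3. That order was shared by 5 of the 30 members tested (16.7%) and by 52 of all 12500 genes tested (0.416%), and it puts control 3 below deficient 2. The order was taken from Ccl6, a member, after its values were seen. The choice favoured the members' share, so the percentages are no measure of enrichment. Chosen after its values were seen, Pf4, a platelet and macrophage chemokine outside the naming rule, had that order too, at 40.3, 50.5 and 23.9 FPKM in the controls and 19.6, 33.7 and 18.5 FPKM in the deficient-labelled libraries. Lyve1, a marker of lymphatic endothelium that some tissue macrophages also express, was likewise chosen after its values were seen and had the same order. Its levels were 34.6, 61.6 and 30.8 FPKM in the controls and 23.1, 32.2 and 19.1 FPKM in the others. Deficient 3 was the lowest library for 14 of the 30 members (46.7%, against 13.9% of all genes tested) and control 3 for 7 (23.3%, against 34.3%).

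Cell type markers were summed in the same libraries, and their part in the result was not tested. Summed over 9 macrophage markers, the level was between 1038 and 1235 FPKM in the controls and between 1074 and 1198 FPKM in the deficient-labelled libraries, and 0 of the 9 passed the test. The 5 monocyte markers summed to between 130.6 and 154.5 FPKM and to between 102.0 and 148.9 FPKM, and 0 of the 3 tested passed. Among them F13a1 was at 44.4, 59.6 and 43.7 FPKM in control libraries, against 31.6, 45.4 and 17.6 FPKM in the other group. The 6 dendritic cell markers summed to between 101.0 and 145.7 FPKM and to between 100.7 and 143.5 FPKM. The 5 lymphatic endothelium markers ran from 60.05 to 111.4 FPKM in the controls and from 45.3 to 63.4 FPKM in the others. In 6 other lists, besides the epithelial markers given further below, the sum or its calls moved with the groups. The 8 mast cell markers summed to between 43.3 and 76.0 FPKM in the controls and to between 11.01 and 55.2 FPKM in the deficient-labelled libraries, with 4 of 6 tested passing as lower. The 8 smooth muscle markers summed to between 8011 and 9794 FPKM and to between 3229 and 3807 FPKM, with 8 of 8 passing as lower. The 7 decidual markers in the table summed to between 978.0 and 1448 FPKM and to between 339.6 and 444.9 FPKM. Among them Des, a gene of muscle as well as decidua, passed as lower. Des is in the smooth muscle list too, so the decidual and smooth muscle sums are not independent. The 7 erythroid markers, 4 of them listed at 0, summed to between 2.97 and 6.18 FPKM and to between 13.2 and 25.6 FPKM, where Alas2 passed as higher. The 8 stromal markers summed to between 6104 and 6627 FPKM and to between 5402 and 5577 FPKM, and the 6 eosinophil markers to between 3.20 and 4.92 FPKM and to between 4.96 and 8.74 FPKM, with no call in either list. The groups did not overlap in any of these sums except that of mast cells. For eosinophils they nearly met, at 4.918 FPKM in control 2 and 4.957 FPKM in deficient 2. Of those 6 eosinophil markers, 1 was tested and 1 was listed at 0 throughout. Directions were mixed within the decidual and stromal lists. Of the 5 decidual markers tested, 2 had a difference above 0 and 3 below, and of the 8 stromal markers 2 lay above 0 and 6 below.

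**Figure D3:**
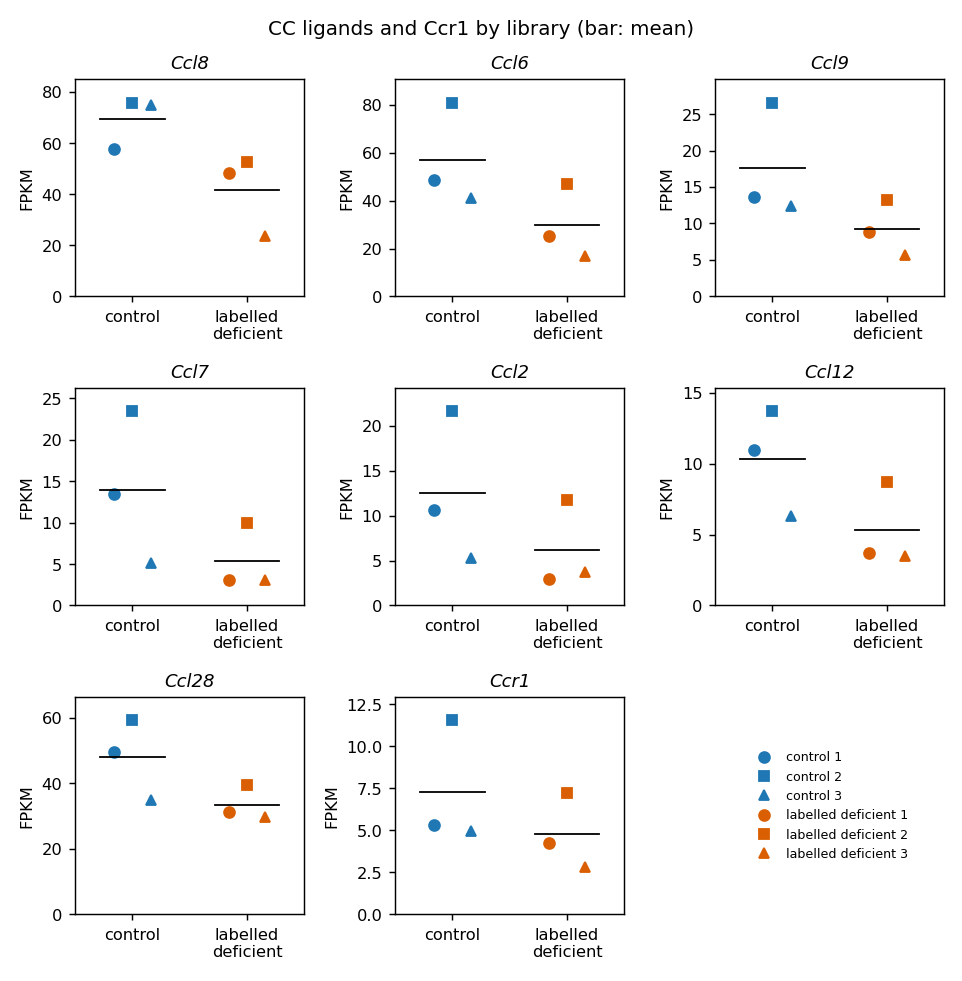
Level in FPKM of 7 CC ligands and of Ccr1 in each library, on axes that start at 0, with a bar at the group mean. Control 2 is the highest library in all 8 panels, and the groups are separate only for Ccl8.

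Among the members tested, Cxcl5, Ccl20 and Cxcl1 had the widest ratio of highest to lowest library within each group. Cxcl1, Cxcl2, Cxcl3 and Cxcl5 attract neutrophils, and Ccl20, an epithelial product, attracts Ccr6-bearing lymphocytes and dendritic cells. Cxcl5 was at 17.7, 16.9 and 0.935 FPKM in control libraries, against 2.97, 3.00 and 0.458 FPKM in deficient-labelled libraries. Ccl20 was at 15.9, 9.96 and 0.542 against 2.84, 1.56 and 0.540 FPKM. Cxcl1 was at 12.3, 8.28 and 2.20 against 5.84, 4.08 and 0.457 FPKM. Controls 1 and 2 were the 2 highest libraries for each of the 3 genes, and control 3 lay below deficient 1 and deficient 2, so the groups overlapped. Cxcl5 differed by -1.60 (SE 0.94, 95% interval -3.85 to 0.65), Ccl20 by -1.41 (SE 0.89) and Cxcl1 by -0.99 (SE 0.73), with limma adjusted p of 0.38, 0.41 and 0.48.

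Cxcl2 and Cxcl3 stayed below the filter and had the same high pair. Cxcl2 was at 1.22, 1.28 and 0.150 FPKM in control libraries, against 0.351, 0.654 and 0.175 FPKM in deficient-labelled libraries. Cxcl3 was at 0.797, 0.854 and 0.027 FPKM and at 0.213, 0.375 and 0.027 FPKM, values that equal 30, 32 and 1 reads and 8, 14 and 1 reads when divided by the worth of 1 read on a transcript of 1016 bases. Summed over Cxcl1, Cxcl2, Cxcl3, Cxcl5 and Ccl20, the level was 47.8, 37.2 and 3.86 FPKM in the controls and 12.2, 9.66 and 1.66 FPKM in the deficient-labelled libraries. Control 3 lay below deficient 1 and deficient 2 in this sum, so the groups overlapped. Of their receptors, Cxcr2 was at 0.755, 0.527 and 0.143 FPKM and at 0.241, 0.564 and 0.027 FPKM, and Cxcr1 and Ccr6 were at most 0.048 and 0.091 FPKM in any library.

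With control 3 and deficient 3 left out, Cxcl5 and Ccl20 passed the test. The libraries left out held the lowest values of both genes, so dropping them removed the overlap between the groups. The difference was then -2.20 for Cxcl5 (SE 0.06, limma adjusted p = 0.0064) and -2.12 for Ccl20 (SE 0.29, limma adjusted p = 0.023). In that fit 10% of the members tested were called, near the 10.2% of all genes tested. In those 4 libraries the mean of Cxcl5 was 5.79 times higher and that of Ccl20 5.87 times higher in the controls. Cxcl1 did not pass in that fit (-0.91, limma adjusted p = 0.077). Leaving out control 3 alone gave -2.68 for Cxcl5 and -2.46 for Ccl20 with limma adjusted p of 0.062 and 0.057, and leaving out control 1 alone gave -1.05 and -0.73, so 1 library moved these values by more than 1.5 times. Cxcl1 was at -0.32 without deficient 3, at -0.56 without control 1 and at -1.58 without control 3. The 9 neutrophil markers summed to between 7.23 and 17.7 FPKM in the controls and to between 5.48 and 19.8 FPKM in the other group, and 0 of the 3 tested passed. S100a8, a neutrophil and monocyte protein, was at 5.38, 6.38 and 2.15 FPKM in control libraries, against 1.80, 6.88 and 0.484 FPKM in deficient-labelled libraries. S100a9, its partner, was at 5.68, 7.37 and 1.81 FPKM and at 2.85, 8.01 and 0.827 FPKM. Csf3r, the receptor for the growth factor of neutrophils, went the other way without overlap, at 2.95, 2.62 and 2.69 FPKM and at 2.97, 3.185 and 3.125 FPKM (difference 0.13, limma adjusted p = 0.35). Ly6g, Elane and Ngp, defining genes of the neutrophil lineage, were under 0.12 FPKM in every library. The part of neutrophils in the result was not tested.

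**Figure D4:**
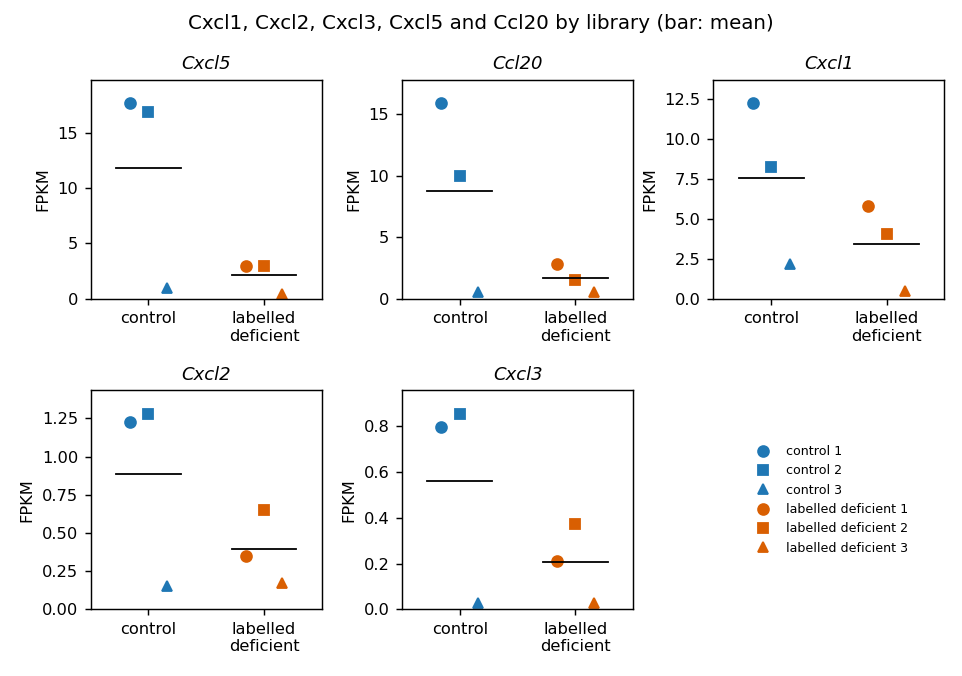
Level in FPKM of Cxcl5, Ccl20, Cxcl1, Cxcl2 and Cxcl3 in each library, on axes that start at 0, with a bar at the group mean. Controls 1 and 2 are the highest libraries in all 5 panels, while control 3 and deficient 3 are the lowest, so the control mean lies between separate points.

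Cxcl5, Cxcl3, Cxcl1 and Cxcl2 are neighbours on chromosome 5 between 90759360 and 90905938 (GRCm38), and all 4 were high in the same libraries as Ccl20. Stretches before the start are shown for Cxcl1, Cxcl2, Cxcl3 and Ccl20, whose promoters were matched in RefSeq. The 100 bases before the RefSeq gene start are given 5′ to 3′ for Cxcl1 (chr5:90891145-90891244), Cxcl2 (chr5:90903799-90903898), Cxcl3 (chr5:90786001-90786100) and Ccl20 (chr1:83116666-83116765), all on the plus strand of GRCm38.p6. Capitals mark each match to GGAANTTCC.
Cxcl1: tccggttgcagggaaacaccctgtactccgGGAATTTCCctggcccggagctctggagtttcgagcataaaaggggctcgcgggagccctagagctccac
Cxcl2: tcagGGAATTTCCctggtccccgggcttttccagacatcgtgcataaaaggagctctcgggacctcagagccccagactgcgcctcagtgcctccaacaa
Cxcl3: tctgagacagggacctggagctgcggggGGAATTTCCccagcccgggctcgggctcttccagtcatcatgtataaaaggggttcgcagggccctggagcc
Ccl20: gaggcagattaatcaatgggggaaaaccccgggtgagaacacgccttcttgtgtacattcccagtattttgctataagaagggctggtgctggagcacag

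Cxcl1, Cxcl2 and Cxcl3 each held the same 9 letters, beginning 70, 96 and 72 bases before the start. The stretch shown for Ccl20 held no match to this form, and other forms of the kappaB site were not searched. Over the 250 bases before the start, the motif stood in 267 of 32851 RefSeq promoters (0.813%). RefSeq promoters were matched for 44 of the 60 members, and 7 of those had the motif, namely Cxcl1, Cxcl2, Cxcl3, Cxcl10, Ccl12, Ccl1 and Ccr3. A member was counted once if any of its promoters matched, while the background counts each promoter, so the figures differ in unit. The hexamer AGAACA was searched on both strands as the half-site bound by the progesterone and glucocorticoid receptors. It stood in 16.1% of all promoters and in those of 8 of the 44 matched members, a share near that background. These were Ccl20, Ccl22, Ccl27b, Cxcl14, Cxcl9, Cxcr1, Cxcr2 and Cxcr4. A match is a stretch of letters and does not show binding.

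Of 8 ligands with a part in steady-state traffic 5 were tested, 4 with a difference above 0 (Cxcl14, Cxcl12, Ccl25 and Ccl27a) and Ccl28 below, with a median of 0.25. Cxcl14 (chromosome 13, 56288643 to 56296551) is made by epithelium and stroma and attracts monocyte and dendritic precursors. It was at 15.03, 12.5 and 24.4 FPKM in control libraries, against 33.3, 49.6 and 96.3 FPKM in deficient-labelled libraries, so the groups did not overlap. The means were 17.3 ± 6.2 and 59.8 ± 32.7 FPKM (SD, n = 3 each), 3.45 times higher in the deficient-labelled libraries, and the difference was 1.65 (SE 0.41, 95% interval 0.66 to 2.63, limma adjusted p = 0.093). The replicate 3 library was the highest of each group. Cxcl14 passed with array weights (1.47, limma adjusted p = 0.030), where 14.2% of all genes tested were called, and when both replicate 3 libraries were dropped (1.501, limma adjusted p = 0.024). It did not pass with any single library left out, where the difference ran from 1.2396 to 1.99 and the adjusted p from 0.091 to 0.27.

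Cxcl12 signals through Cxcr4 and is cleared by Ackr3. Cxcl12, a stromal ligand that holds haematopoietic cells and guides vessels, was at 10.01, 8.61 and 8.54 FPKM in control libraries, against 10.8, 12.5 and 18.1 FPKM in deficient-labelled libraries (difference 0.53, SE 0.18, limma adjusted p = 0.17), with no overlap. Cxcr4 was at 4.61, 6.26 and 4.66 FPKM and at 8.82, 11.1 and 6.03 FPKM (difference 0.62, SE 0.21, limma adjusted p = 0.17), where deficient 3 lay below control 2. Ackr3 was at 35.0, 28.3 and 38.8 FPKM and at 47.0, 33.1 and 28.9 FPKM, a difference of 0.07 (95% interval -0.40 to 0.55). Cxcr4 passed without deficient 3 (0.83, limma adjusted p = 0.049), where 4.21% of all genes tested were called, and with array weights (0.70, limma adjusted p = 0.039). The largest Cxcl12 value came from deficient 3, and the difference was 0.33 without that library and 0.30 without control 3 and deficient 3 together.

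Ccl25, a ligand of Ccr9 known from gut and thymus, was low but tight. It was at 1.44, 1.49 and 1.34 FPKM in control libraries, against 1.81, 1.97 and 1.87 FPKM in deficient-labelled libraries, a difference of 0.25 (SE 0.07, limma adjusted p = 0.13) with no overlap. Ccl28, a mucosal chemokine of epithelial cells, was at 49.6, 59.2 and 35.1 FPKM in control libraries, against 31.3, 39.6 and 29.7 FPKM in the others (difference -0.48, SE 0.20, limma adjusted p = 0.24), and the difference was -0.32 without control 2. Ccl28 passed with array weights alone (-0.60, limma adjusted p = 0.046). The 8 epithelial markers summed to between 635.6 and 701.9 FPKM in the controls and to between 805.4 and 1030 FPKM in the deficient-labelled libraries, with Krt19 and Cdh1 passing as higher. The part of epithelium in the Cxcl14 and Ccl28 values was not tested. Ccl27a, the skin chemokine that shares the receptor Ccr10 with Ccl28, stayed between 0.734 and 1.58 FPKM. Its reads may be shared with its near-identical copy Ccl27b, which makes its level uncertain.

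Other ligands overlapped between the groups. Cx3cl1 (fractalkine), a membrane-bound ligand that catches Cx3cr1-bearing monocytes, was at 10.1, 8.12 and 5.56 FPKM in control libraries, against 8.31, 14.4 and 11.3 FPKM in deficient-labelled libraries (difference 0.47, 95% interval -0.12 to 1.06), and the difference was 0.26 without control 3 and 0.29 without deficient 2. Cxcl16, the membrane-bound ligand of Cxcr6, was at 20.9, 20.8 and 14.1 FPKM and at 16.5, 20.0 and 13.3 FPKM (difference -0.15, 95% interval -0.62 to 0.32), and the difference ran from -0.33 without control 3 to -0.0095 without deficient 3. Cxcl17, a mucosal chemokine, was at 4.48, 5.11 and 4.93 FPKM and at 7.15, 9.75 and 4.10 FPKM (difference 0.39, 95% interval -0.23 to 1.006), and the difference was 0.68 without deficient 3 (limma adjusted p = 0.056) and 0.14 without deficient 2. Deficient 3 was the lowest library for Cxcl16 and Cxcl17, while deficient 1 and deficient 2 exceeded every control for Cxcl17. Xcl1, which natural killer cells and T cells release to attract Xcr1-bearing dendritic cells, had means of 0.873 ± 0.289 and 1.241 ± 0.289 FPKM (SD, n = 3 each). Natural killer markers were low, the 8 summing to between 4.33 and 6.95 FPKM in the controls and to between 5.36 and 7.88 FPKM in the other group.

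The chemokines of the T cell receptor Cxcr3 were near the filter. Cxcl10, which interferon induces, was at 4.08, 4.003 and 2.07 FPKM in control libraries, against 1.51, 2.90 and 1.72 FPKM in deficient-labelled libraries (difference -0.52, SE 0.25, limma adjusted p = 0.30). Cxcl9 reached at most 0.699 FPKM and Cxcl11, annotated in GENCODE as a polymorphic pseudogene, at most 0.337 FPKM. Cxcr3 itself was between 0.793 and 1.35 FPKM in all libraries. Of the 8 T cell markers, 7 stayed below a mean of 1 FPKM, Cd3e at most 0.683 FPKM among them.

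**Figure D5:**
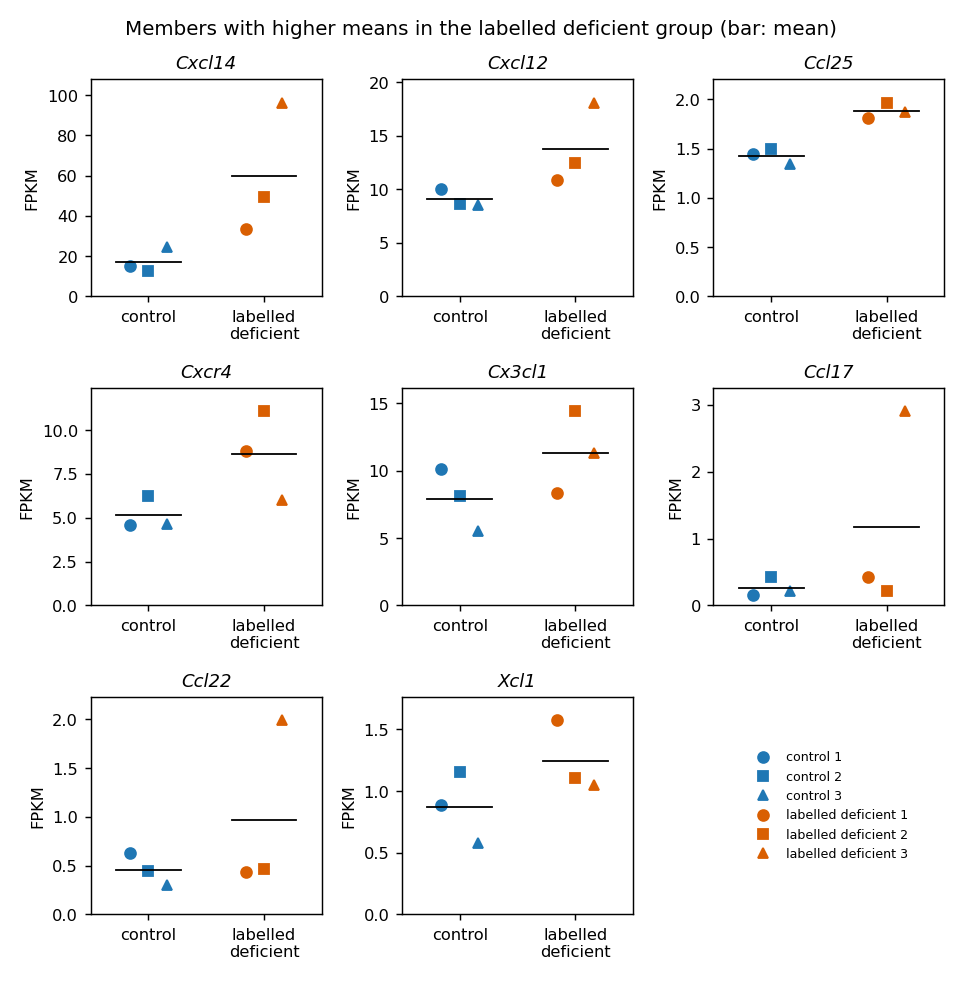
Level in FPKM of 8 members with a higher mean in the deficient-labelled libraries, on axes that start at 0, with a bar at the group mean. The groups are separate for Cxcl14, Cxcl12 and Ccl25, and for Ccl17 and Ccl22 deficient 3 is the highest library by far.

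Receptors of monocytes and macrophages made up most of the receptor signal. Ccr2, the receptor by which inflammatory monocytes leave the blood, was at 14.0, 18.6 and 12.5 FPKM in control libraries, against 16.3, 18.7 and 10.7 FPKM in deficient-labelled libraries, with a difference of 0.00 (95% interval -0.54 to 0.54). Cx3cr1 was at 9.38, 9.83 and 7.68 FPKM and at 8.76, 11.2 and 11.7 FPKM (difference 0.21, 95% interval -0.10 to 0.53). Both overlapped, and Ccr2 had close group means while its ligands Ccl2, Ccl7 and Ccl12 had lower means in the deficient-labelled libraries. Ackr1, the venular receptor that carries chemokines across endothelium, was at 6.66, 5.42 and 6.87 FPKM and at 7.27, 6.09 and 7.27 FPKM (difference 0.11, 95% interval -0.15 to 0.37). The 18 signalling receptors summed to 48.8, 64.2 and 41.0 FPKM in the controls and to 49.2, 64.3 and 40.8 FPKM in the deficient-labelled libraries, and 12 of them stayed below 1 FPKM.

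By class, the fitted difference was below 0 for 10 of the 13 CC ligands tested (median -0.80), for 4 of the 9 CXC, CX3C and C ligands (median 0.26), for 3 of the 6 signalling receptors (4 with median-of-ratios scaling) and for 0 of the 2 atypical receptors, where 4390 of all 12500 genes lay below 0. Under the other scalings the number of CC ligands below 0 was 9 or 10 and their median between -0.86 and -0.76. That median was -0.50 without control 2 and -0.44 without deficient 3. Summed over the 24 CC ligands, the level was 232.4, 323.3 and 189.9 FPKM in the controls and 136.5, 197.7 and 102.0 FPKM in the deficient-labelled libraries, where deficient 2 exceeded control 3.

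Of the 30 members that were not tested, 24 had some signal below a mean of 1 FPKM. Ccl17 and Ccl22, dendritic cell and macrophage products that attract Ccr4-bearing T cells, were high in a single library. They lie close together on chromosome 8, but Cx3cl1, which was highest in deficient 2, lies between them. Ccl17 was at 0.158, 0.423 and 0.211 FPKM in control libraries, against 0.423, 0.212 and 2.90 FPKM in deficient-labelled libraries, equal to 3, 8 and 4 reads and to 8, 4 and 55 reads. Ccl22 was at 0.627, 0.450 and 0.300 FPKM and at 0.435, 0.466 and 1.99 FPKM. Ccl1, on chromosome 11, was likewise highest in deficient 3, at 0.483 FPKM or 9 reads, with 0, 0 and 1 reads in the controls. Their receptors Ccr4 and Ccr8 stayed at or below 0.071 FPKM. Cxcl13, which attracts B cells to follicles, was at 0.489, 1.10 and 0.982 FPKM in control libraries, against 0.210, 0.235 and 0.699 FPKM in the others, with the groups overlapping.

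The remaining members were below the filter of 1 FPKM or listed at 0. Among the other ligands, Ccl24, an eosinophil attractant, stayed between 0.439 and 0.691 FPKM. The atypical receptors Ackr2, which clears inflammatory CC ligands, and Ackr4, which clears Ccl19, Ccl21 and Ccl25, were between 0.624 and 0.892 FPKM and between 0.745 and 1.00 FPKM. Of the receptors, Ccr10 reached at most 0.932 FPKM, Cxcr6 0.672 FPKM, Ccr7 0.493 FPKM, Xcr1 0.330 FPKM, Ccr3 0.224 FPKM, Ccr9 0.130 FPKM and Cxcr5 0.073 FPKM. Ccl19, Ccl21a, Ccl21b, Ccl21c, Ccl26 and Ccl27b were listed at 0 in every library. The Ccl21 and Ccl27 genes have near-identical copies on chromosome 4, and the haemoglobin genes Hba-a1, Hba-a2, Hbb-bs and Hbb-bt, which also have close copies, were listed at 0 too, so an entry of 0 here is not a measure of absence.

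The machinery around the family was examined in 4 lists, whose counts of calls are to be read against the 3.34% of all genes called. Of 13 chemokine relatives tested, 1 passed as lower and 0 as higher. It was Rarres2, the precursor of the attractant chemerin, at 124.6, 114.1 and 122.5 FPKM in control libraries, against 65.8, 78.2 and 80.2 FPKM in deficient-labelled libraries (difference -0.68, SE 0.09, limma adjusted p = 0.019). The chemerin receptor Cmklr1 did not pass (0.21, limma adjusted p = 0.30). Of 25 genes of chemokine receptor signalling tested, 1 fell and 0 rose, a share near that background. That gene was Rgs1, a lymphoid and myeloid regulator that shuts off G protein signals of chemokine receptors, at 13.2, 12.4 and 14.2 FPKM in control libraries, against 2.39, 3.95 and 3.83 FPKM in deficient-labelled libraries (difference -1.72, SE 0.15, limma adjusted p = 0.0050). Next in that list came Rgs2 (-0.57, limma adjusted p = 0.074), Gng2 (-0.28, 0.088) and Arrb1 (0.28, 0.16).

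Of 17 tested genes that induce chemokine transcription, 0 passed with limma and 1 had an unadjusted p under 0.05. That was Irf1, a factor of the interferon response, at 11.1, 11.5 and 9.84 FPKM in control libraries, against 13.5, 14.3 and 13.5 FPKM in deficient-labelled libraries (0.33, limma adjusted p = 0.074). Rela, a subunit of NF-kappaB, differed by 0.15 (limma adjusted p = 0.28). Il1b, an inducer of Cxcl1 and its neighbours, was at 4.57, 5.69 and 1.91 FPKM and at 2.64, 3.15 and 1.21 FPKM (limma adjusted p = 0.42). The replicate 3 library was the lowest of each group. The part of Il1b in the chemokine levels was not tested. Of 20 tested genes for the proteoglycans and enzymes of heparan sulfate, 2 fell and 0 rose. Hspg2, the basement membrane proteoglycan perlecan, differed by -0.84 (SE 0.07, limma adjusted p = 0.0038), from 97.0, 93.2 and 94.4 FPKM to 49.2, 54.3 and 54.2 FPKM. Gpc4, a glypican of the cell surface, differed by -0.90 (SE 0.10, limma adjusted p = 0.010). The medians of the 4 lists were -0.05, -0.02, 0.02 and 0.02 in the order given, against 0.06 over all genes.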

How the data were processed

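RNA-seq of uterine tissue was analysed for 6 libraries, 3 control and 3 labelled deficient. The authors deposited FPKM values rounded to 3 decimals, 1 column per sample; 0 columns were unmatched. The tools listed in the submitters' processing notes, with no role or order, are STAR 2.7.0f, DESeq2 1.24.0 and cutadapt 2.7, and the build is mm10. The counting program, annotation, strandedness and treatment of shared reads are not given in those sources.

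limma 3.58.1 in R 4.3.3 (lmFit, eBayes with trend) was fitted to log2(FPKM + 1) of the 12500 genes averaging 1 FPKM or more, and p-values were adjusted over all of them by Benjamini-Hochberg at 0.05. Low members therefore had no test. The values of 1 member tested are not reported here, though counts and sums include it. The code was tested on simulated data. Members and lists were chosen with earlier results of these data known. Members with a mean of at least 5 FPKM or separate groups are given per library, and up to 4 members of smallest p per list are named. Others named were chosen after their values were seen. Reads behind low values were taken from GENCODE M21 lengths (GRCm38) and accepted where all 6 values lay within 0.1 of whole reads (11 of 28 members tried). The depth of single libraries is unknown. Alternatives were pseudocounts of 0.1 and 0.5, other filters, 3 scalings, no trend, array weights, libraries left out and a block for the replicate number.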

Additional observations from a re-analysis of the deposited data

How the results depend on the processing

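With 17 alternatives, 26 of the 30 members tested kept the sign of their difference in every fit that held them. With array weights 2 members were called higher (Cxcl14, Cxcr4) and 1 lower (Ccl28), 10% of them against 14.2% of all genes. Without control 3 and deficient 3 together 1 was called higher (Cxcl14) and 2 lower (Cxcl5, Ccl20), 10% of them against 10.2% of all genes. With 1 library left out, between 0 and 1 member was called higher (Cxcr4, without deficient 3) and 0 lower. The members' median of -0.09 was -0.41 with a minimum mean of 5 FPKM, where 22 members were tested, and ran from -0.29 to -0.0061 with 1 library left out. It stayed between -0.14 and -0.06 under the other scalings, which split the calls over all genes into 218 higher and 211 lower, 125 and 379, or 131 and 336, against 168 and 249.

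The labels do not say whether samples with the same replicate number were paired. Deviations of same-numbered libraries correlated at -0.14, 0.079 and -0.13 across genes, and no control correlated best with its own number except control 2. The replicate block called 1 member lower (Cxcl1, limma adjusted p = 0.037) and 143 genes in all (1.14%). At an unadjusted limma p under 0.05, 17 of the 30 members differed with the block, against 6 without it. The share of all genes at that level was not counted for the block, so the 17 cannot be read as a result about the members. Whether the replicate numbers mark a shared factor was not tested.

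Signs changed in members near 0. Ccl5 was at 0.017 after rescaling to a sum of 1000000, and at 0.080, 0.083, 0.061 and 0.089 without control 1, control 2, deficient 1 or deficient 3. Ccr2 was at -0.056 with median-of-ratios scaling, -0.054 with quantile normalization, and -0.034, -0.11, -0.061 and -0.15 without control 1, control 3, deficient 1 or deficient 2. Ackr3 was at -0.050 without control 2 and -0.12 without deficient 1, and Cxcr3 at 0.053 and 0.0088 in the same fits. With 1 library left out, Ccl5 ran from -0.22 to 0.089, Ccr2 from -0.15 to 0.22 and Ackr3 from -0.12 to 0.22. The cause was not tested. Members below 1 FPKM were not tested, so no difference was measured against its error there.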
